A study of Mus musculus with 12 samples.

Results

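The genes of oxidative phosphorylation were taken by symbol: every probe set whose platform gene symbol starts with Nduf, with Sdh followed by a, b, c or d, with Uqcr, with Cox followed by a digit or with Atp5, plus Cyc1 and Cycs. The rule gave 109 probe sets for 80 genes, of 12488 probe sets on the array. Members are counted as probe sets below unless genes are named. A probe set is a group of short oligonucleotides against one transcript, and several probe sets can stand for one gene. Cortex of E16.5 mouse embryos was cut into medial, dorsal, ventral, rostral and occipital pieces, and the whole hemisphere was the sixth group. Each of the 6 groups had 2 Affymetrix U74Av2 arrays, numbered 1 and 2, from independent dissections per the labels. Treatment, allele and strain are not given in the sources used here, and the piece titled rostral is called lateral in the protocol text. The number of embryos behind a dissection is not given in the sources used here.

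Oxidative phosphorylation is the mitochondrial pathway in which electrons from NADH and succinate pass through complexes I and II to ubiquinone, through complex III to the small carrier cytochrome c, and through complex IV to oxygen. The proton gradient that complexes I, III and IV build drives ATP synthase, also called complex V. The subunits measured here are encoded in the nucleus, made in the cytosol and imported, while a small set of core subunits is encoded by mitochondrial DNA. In developing cortex, dividing progenitors are known for a high use of glycolysis and maturing neurons for a growing dependence on respiration.

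Of the 109 probe sets, 38 stand for subunits of complex I, 4 for complex II, 9 for complex III including cytochrome c1 (Cyc1), 1 for cytochrome c (Cycs), 22 for complex IV and 22 for ATP synthase. The other 13 carry symbols that the rule also takes but that name assembly or regulatory factors, such as Cox17, Ndufaf4 and Cox7a2l. A probe set was tested if its average difference, the perfect-match minus mismatch signal, was above 1387.0 on at least 2 of the 12 arrays. That left 73 probe sets for 66 genes. Another 11 probe sets pair a member symbol with further symbols, and they are described only as a group.

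The 36 probe sets under the filter were spread unevenly. All 4 probe sets of complex II and all 9 of complex III were tested, but 8 of 22 for complex IV. Genes with no tested probe set were Ndufa1, Ndufa12, Ndufc2 and Ndufs4 of complex I, Cox5a, Cox6a2, Cox6b1, Cox6b2, Cox7a1 and Cox8a of complex IV, Atp5g1 and Atp5j2 of ATP synthase, and the assembly factors Cox14 and Cox20. Among these are ubiquitous subunits (Cox5a, Cox6b1, Cox8a), so a low average difference here describes the probe set, not the absence of the transcript. The muscle isoforms Cox6a2, at -912.5 to -9.5, and Cox7a1, at -536.2 to 424.8 on the 12 arrays, were also under the filter.

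Across all probe sets the arrays were alike in scale. The median average difference was 735.4 to 849.3 and 39.1% to 41.7% of probe sets were above the filter value. The 5' to 3' ratio of the actin control probe sets, a sign of RNA length, ranged from 0.604 to 0.831 in replicate 1 and from 0.804 to 0.887 in replicate 2, with hemisphere replicate 1 lowest. The same ratio for the Gapdh control probe sets ranged from 0.982 to 1.157 in replicate 1 and from 0.979 to 1.143 in replicate 2. Cortical markers were present on all arrays: Tbr1, a transcription factor of early cortical neurons, was at 13630.5 to 24036, and all 4 cortical marker genes that the array measures passed the filter. Over all tested probe sets, the closest array (highest Pearson's r of log2 values across probe sets, as a description) was one of the same group for 3 of 12 arrays and one of the same number for 7. Of 4 pairs that were each other's closest, 1 was the ventral pair. The others were medial and dorsal replicate 1 (r = 0.965), occipital and hemisphere replicate 2 (0.969), and rostral replicate 2 with occipital replicate 1 (0.963), which share neither group nor number. The labels were used as given, and whether those of the last pair were exchanged was not tested. A fit without the 4 arrays of these pieces is part of the closing section.

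Members varied little among the 5 pieces. The group means of a member spanned a median of 0.26 on the log2 scale from the lowest to the highest piece, a 1.2-fold range, against 0.48 or 1.39-fold over all 5832 tested probe sets. Only 1 of the 73 (1.37%) spanned more than 1 on the log2 scale, against 14.7% of all tested. The members were also brighter, with a median average difference of 11622 against 3503, and their residual SD was 0.22 against 0.26. No member passed for the 5 pieces in limma's moderated F-test with Benjamini-Hochberg adjustment over all tested probe sets, where 3.26% of all tested passed, and 0 members had an unadjusted p under 0.05, where 15.0% of all tested did. The member with the smallest p was the second probe set of Cyc1 (adjusted p = 0.333).

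**Figure D1:**
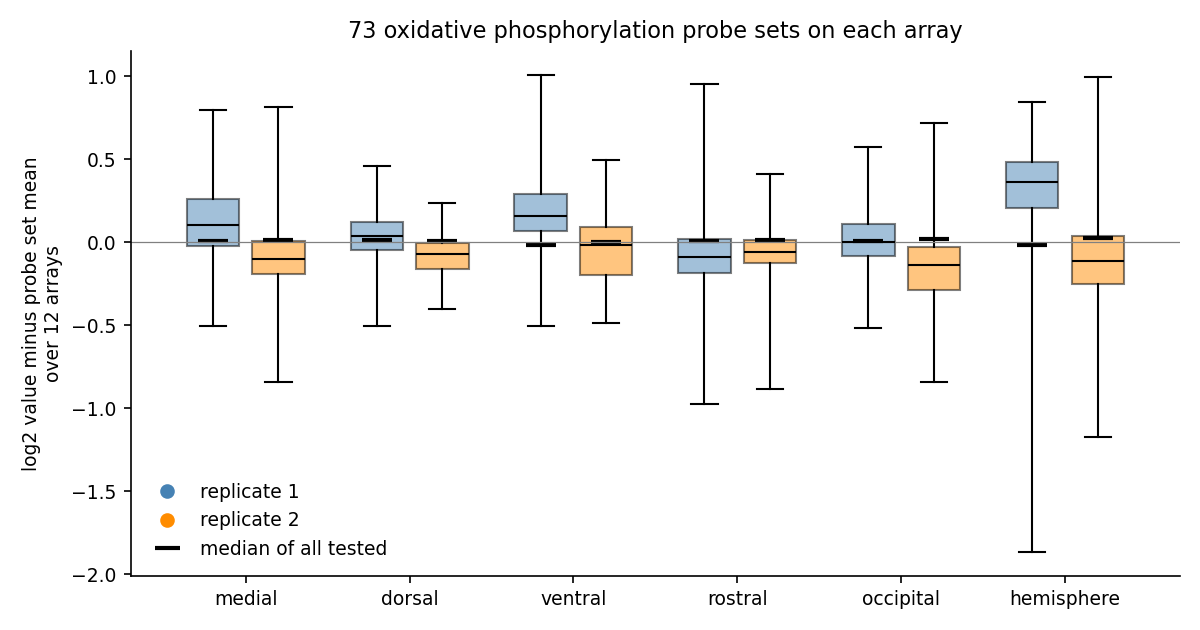
Log2 value minus the probe set's own mean over 12 arrays, for the 73 tested members on each array. Boxes give the quartiles and median, whiskers the lowest and highest member, and short black bars the median of all 5832 tested probe sets; hemisphere replicate 1 has the highest box and occipital replicate 2 the lowest median.

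The median shift of the 73 members on an array, relative to each probe set's mean over the 12 arrays, separated the replicate numbers more than the pieces. It was 0.10 and -0.10 in the medial arrays (replicates 1 and 2), 0.041 and -0.069 in dorsal, 0.16 and -0.016 in ventral, -0.086 and -0.055 in rostral, 0.002 and -0.14 in occipital, and 0.36 and -0.11 in the whole hemisphere. In 5 of 6 groups the array numbered 1 was the higher, and rostral was the exception. Over all tested probe sets the same medians were within -0.018 and 0.024. The piece with the highest group mean was ventral for 38 of 73 members (52.1%, against 31.3% of all tested). The piece with the lowest was rostral for 24 (32.9%, against 12.8% of all tested) and occipital for 21 (28.8%, against 13.7%). Ventral was the lowest for 5 (6.85%, against 34.5%).

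Ventral was compared with the mean of the other 4 pieces. The median member was higher in ventral by 0.10 on the log2 scale, against -0.022 over all tested, and 52 of 73 members were above 0. Within replicate 1 the median was 0.13 and within replicate 2 it was 0.081. Its size depended on the array: leaving out ventral replicate 1 gave 0.038, and leaving out the second array gave 0.196. No member passed the test, where 9.79% of all tested probe sets did, and 4 members had an unadjusted p under 0.05 in limma, where 23.0% of all tested did. For 69 of 73 members the 95% interval of the difference lay within a 2-fold change either way. By complex, the medians were 0.091 for complex I, 0.15 for complex II and 0.20 for complex III. They were 0.16 for complex IV, 0.099 for ATP synthase and -0.11 for the assembly factors. Within replicates 1 and 2, complex I had 0.148 and 0.081, complex II 0.155 and 0.128, and complex III 0.277 and 0.123. Complex IV had 0.125 and 0.093, ATP synthase 0.137 and 0.019, and the assembly factors -0.212 and 0.074.

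Both ventral arrays were above all 8 arrays of the other pieces for 11 of 73 members (15.1%, against 10.7% of all tested) and below them for 1 (1.37%, against 13.8%). The 11 were Ndufa5, Ndufa10, Ndufb2, Ndufb6 and Ndufb8 of complex I, Uqcrb, Uqcrc1 and Uqcrq of complex III, Cox5b of complex IV, cytochrome c and the assembly factor Ndufaf4. The 1 was Cox17. In the same arrays 7 of 13 tested neuronal marker probe sets rose and none fell, with a list median of 0.69, and 12 of 14 for cycling progenitors fell, with a median of -1.23. Radial glia markers fell in 2 of 6 probe sets, and 1 of the 4 cortical markers fell. The cortical list had a ventral median of -0.73, with 3 of 4 at an unadjusted p under 0.05 in limma (23.0% of all tested). Neurod6 was at 4384 and 5439 in ventral against 7369 to 15080 in the other pieces. Tbr1 was at 20333 and 21076, within the 13630.5 to 24036 of the other pieces. The summed average difference of the neuronal list was 331091 and 341461 in ventral against 212511 to 298278 in the other pieces, and that of the cycling list 29313 and 33192 against 54943 to 84980. The part of cell makeup in the members' values was not tested, and in such bulk tissue fewer cells of a type and less RNA per cell cannot be told apart.

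**Figure D2:**
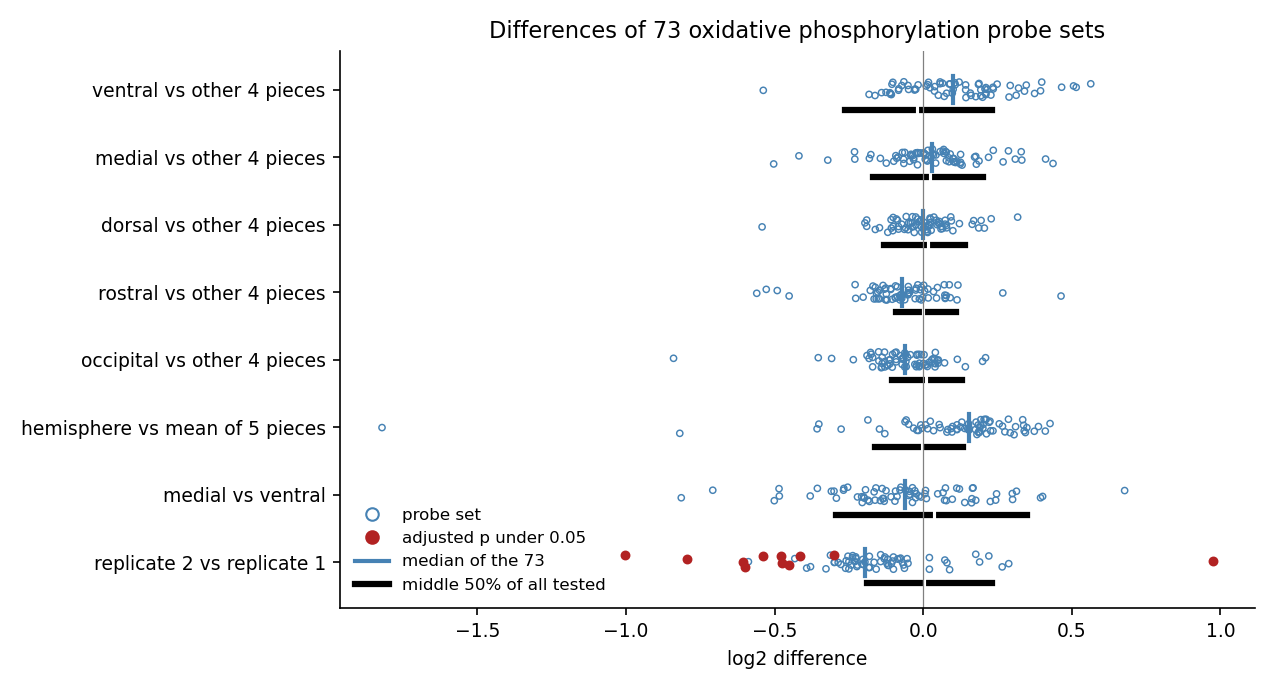
Log2 differences of the 73 tested members in 8 comparisons: open circles are probe sets, filled red circles those with adjusted p under 0.05 (limma), blue lines the members' medians, and black bars the middle 50% of all 5832 tested probe sets with their median in white. Filled circles appear only in the comparison of the replicate numbers, where 11 of 73 passed; circle height within a line is jitter.

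Complex I oxidises NADH and was the largest group, with 27 tested probe sets for 25 genes. Its members spanned a median of 0.21 on the log2 scale among the pieces. The brightest, Ndufb5, an accessory subunit of the membrane arm, was at 27221 to 37397 over the 10 piece arrays and spanned 0.068, the narrowest range of all 73 members. The core subunits Ndufs1 and Ndufs3, which carry iron-sulphur clusters or support them, spanned 0.20 and 0.13. Ndufv1, which binds NADH, was at 22600.2 to 29614 over the pieces and spanned 0.16. These core subunits all lay in the arm that takes up electrons.

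The widest complex I range was that of Ndufa8, an accessory subunit of the intermembrane-space side. It was at 8022 and 6267 in medial, 7829 and 6632 in dorsal, 8785 and 6914 in ventral, 4477 and 4957 in rostral, and 4672 and 7327 in occipital (replicates 1 and 2). Both rostral arrays were low, and so was the first occipital array but not the second, so rostral overlapped with occipital. Rostral was lower than the other 4 pieces by 0.56 on the log2 scale (SE 0.20), with an unadjusted p = 0.0193 and an adjusted p = 1.0 in limma, where 0.0% of all tested passed. Ndufa10, another accessory subunit, was at 2327 in rostral replicate 1 but 4852 in replicate 2, and 4459 to 5573 in the other pieces. Its rostral difference of -0.53 (SE 0.24, adjusted p = 1.0) rested on the first array: without it the value was 0.002.

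In ventral, Ndufa5 had the largest complex I difference. Its values were 15807 and 11672 in ventral against 8673 to 11528 in the other 8 arrays of pieces, a difference of 0.47 (SE 0.21, limma adjusted p = 0.228). Both ventral arrays were above the others, the second by a small margin. Ndufb8 was at 23674 and 18816 in ventral against 15640.1 to 18206 elsewhere, a difference of 0.29 (SE 0.13, adjusted p = 0.235). The 2 probe sets of Ndufb2 differed alike in ventral, by 0.29 and 0.31. Of the 27 complex I probe sets, 21 were above 0 in ventral and none passed.

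Complex II, succinate dehydrogenase, links the tricarboxylic acid cycle to the respiratory chain, and its 4 subunits had 1 tested probe set each. Sdha, the flavoprotein that oxidises succinate, was dim, at 1253 and 1220.4 in medial, 1279.9 and 1240.1 in dorsal, 1648 and 1814 in ventral, 1720.0 and 1244 in rostral, and 1446 and 1334 in occipital. The ventral arrays were high, and rostral replicate 1 was between them. Ventral was higher by 0.38 on the log2 scale (SE 0.15, limma adjusted p = 0.159). The iron-sulphur subunit Sdhb and the membrane anchors Sdhc and Sdhd spanned 0.17, 0.17 and 0.31 among the pieces. The median complex II difference between the replicate numbers was -0.021, and whether it differs from that of the other complexes was not tested.

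Complex III passes electrons from ubiquinol to cytochrome c. Its 9 tested probe sets had a median ventral difference of 0.20, and 8 of them were above 0. Uqcrq, a small subunit and the brightest member of the complex, was at 41969 and 35984 in ventral against 29713 to 35036 in the other pieces, so the groups did not overlap, and the difference was 0.24 (SE 0.13, limma adjusted p = 0.323). The core protein Uqcrc1 was at 22294 and 21717 in ventral against 16099 to 21019, a difference of 0.20 (SE 0.13, adjusted p = 0.422). Uqcr10, another small subunit, was 0.32 higher in ventral (SE 0.16, adjusted p = 0.267), but occipital replicate 2 at 14337 was above ventral replicate 2 at 14235.

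The pair of probe sets for Cyc1, the haem-bearing cytochrome c1, went different ways. The first (95072_at) was at 25168 to 36862 in the pieces and spanned 0.26. The second (162469_r_at) was dimmer and had the widest range of any member, 1.08 on the log2 scale: 3446 and 4449 in medial, 2160.3 and 2462 in dorsal, 5088 and 3344 in ventral, 4883 and 3327 in rostral, and 2719.9 and 1407 in occipital. Occipital was low and medial, ventral and rostral were high, with dorsal between them. Its occipital difference was -0.84 (SE 0.30, unadjusted p = 0.0209, limma adjusted p = 1.0). For the first probe set all arrays numbered 2 were the higher of their group, so the shape seen in the second is not shared by both.

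Cytochrome c (Cycs), the mobile carrier between complexes III and IV, had 1 probe set. It was at 4397 and 2421 in medial, 4594 and 4250.4 in dorsal, 6032 and 5458 in ventral, 3959 and 4955 in rostral, 4295 and 3859 in occipital, and 5295 and 3802 in the whole hemisphere. Both ventral arrays were above all other pieces, and medial replicate 2 was the lowest of the 12. Ventral was higher than the other pieces by 0.52 (SE 0.23, unadjusted p = 0.0491, limma adjusted p = 0.215), and medial was lower by 0.50 (SE 0.23, adjusted p = 0.37), where 1.27% of all tested passed for medial.

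Complex IV, cytochrome c oxidase, reduces oxygen, and 8 probe sets for 8 of its 14 genes were tested. Its brightest member, Cox6a1, the widely expressed isoform of a regulatory subunit, was at 36409 to 47275 in the pieces and spanned 0.18. Cox5b was at 23555 and 21165 in ventral against 17996 to 20984 elsewhere, a difference of 0.21 (SE 0.17, limma adjusted p = 0.538). Cox4i1 had the widest range of group means over the 6 groups. It was at 7309 and 6644 in medial, 6789 and 4435 in dorsal, 7170.1 and 5915 in ventral, 6071 and 4430.1 in rostral, 7480 and 3466 in occipital, and 3024 and 3577 in the hemisphere. Its lower value came from replicate 2 in every piece. Cox7a2, the widely expressed partner of the muscle isoform Cox7a1, was at 17200.8 to 24959.9 in the pieces, and its ventral difference was 0.18 (SE 0.20, adjusted p = 0.668). The tested Cox4i1 probe set has the suffix f_at, which marks probes that may also match related sequences. The other Cox4i1 probe set was under the filter at 216.9 to 810.5.

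Isoforms known from other tissues were dim. Cox8c, known from testis, was at 1479 and 1784 in ventral against 1046 to 1542 in the other pieces, with a difference of 0.40 (SE 0.18, limma adjusted p = 0.228). Cox8b, the heart and skeletal muscle isoform, is described with the replicate numbers further on. In the skeletal muscle marker list, 1 of 6 genes had a tested probe set, and Acta1, Ckm, Myh3, Myog and Tnnt3 were under the filter.

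**Figure D3:**
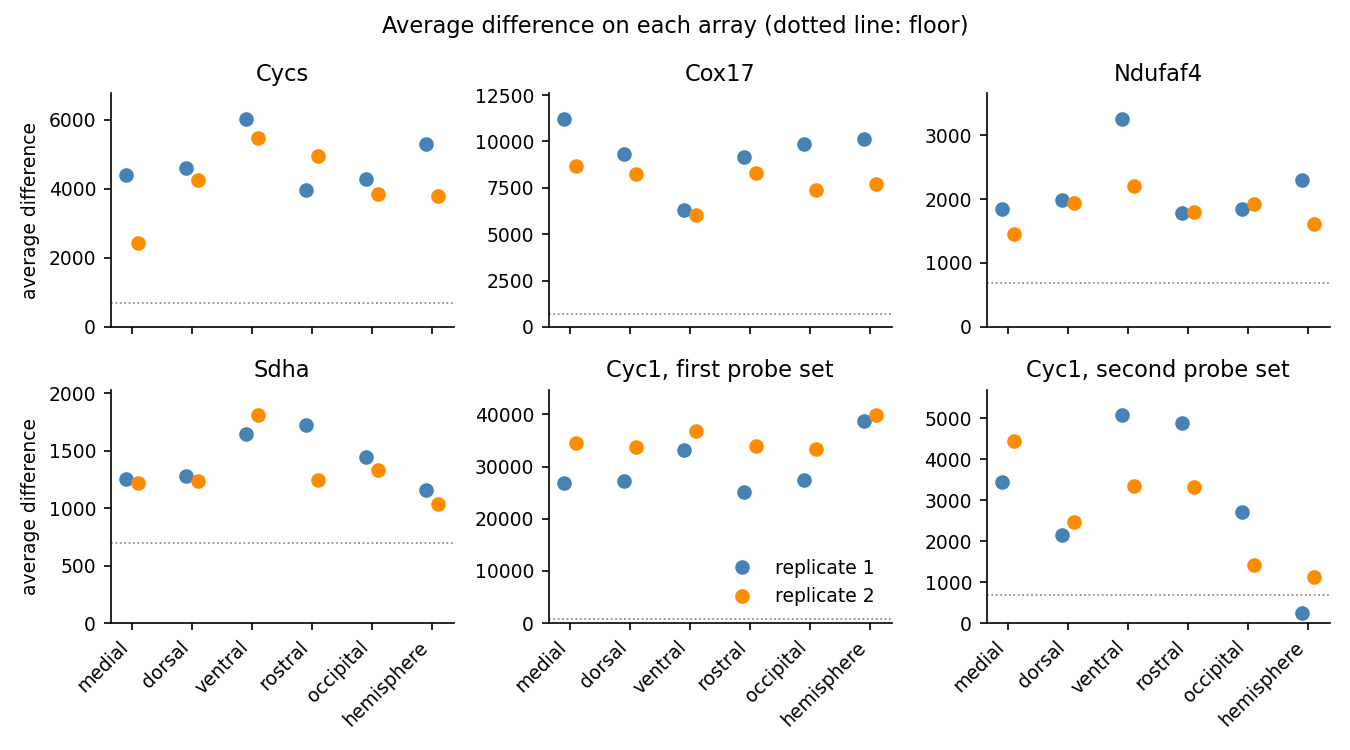
Average difference on each of the 12 arrays for Cycs, Cox17, Ndufaf4, Sdha and both probe sets of Cyc1 (first 95072_at, second 162469_r_at); vertical axes start at 0 and differ between panels, and the dotted line is the floor of 693.5. Ventral is highest for Cycs and lowest for Cox17 on both replicates, and the hemisphere is highest in the first and lowest in the second Cyc1 panel.

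ATP synthase had 16 tested probe sets for 12 genes. Among the pieces they spanned a median of 0.26, close to the other complexes, and 11 of 16 were above 0 in ventral. Atp5l, a membrane-domain subunit and the brightest member, was at 30548 to 45659 over the piece arrays. Atp5a1, the alpha subunit of the soluble head, spanned 0.14. Atp5md and Atp5mpl, small proteins bound to the membrane domain, were 0.21 (SE 0.17) and 0.25 (SE 0.19) higher in ventral, with limma adjusted p = 0.533 and 0.493. The widest range, 0.71, was that of an Atp5d probe set (162343_f_at), whose arrays of one piece differed by more than the pieces did: 11785 and 4167 in medial, for example.

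Of the assembly and regulatory factors, 2 of 8 tested probe sets were above 0 in ventral. Their median was -0.11, against 0.10 for all 73 members. That median was -0.212 within replicate 1 but 0.074 within replicate 2, so the replicates did not share its sign. Cox17, the copper chaperone that supplies complex IV, was at 11240.3 and 8685 in medial, 9321 and 8231 in dorsal, 6288 and 6061 in ventral, 9171 and 8326 in rostral, 9858 and 7406 in occipital, and 10114 and 7681 in the hemisphere. Both ventral arrays were below all 10 others. Ventral was lower than the other pieces by 0.54 on the log2 scale (SE 0.17, 95% interval -0.93 to -0.15, unadjusted p = 0.0123), which did not pass at a limma adjusted p = 0.0908. Against medial alone, ventral was lower by 0.68 (SE 0.22, adjusted p = 0.0858), where 11.2% of all tested passed.

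Ndufaf4, a factor for building complex I, had its highest values in ventral. It was at 3261 and 2207 in ventral against 1457 to 1979 in the other pieces. Ventral replicate 1 stood well above replicate 2, and both were above all other pieces. The difference was 0.56 (SE 0.19, 95% interval 0.13 to 0.99, limma adjusted p = 0.109). Cox18, which inserts a mitochondrially encoded complex IV subunit into the membrane, was at 4784 and 4189.9 in rostral against 5191 to 7674 in the other pieces. Its rostral difference was -0.45 (SE 0.18, adjusted p = 1.0), and it was the 1 member whose rostral arrays were below all other pieces (0.686% of all tested). Sdhaf1, a factor for the iron-sulphur subunit of complex II, had both medial arrays above the others, at 10078 and 7816 against 6608 to 7741, with a difference of 0.29 (SE 0.16, adjusted p = 0.519).

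Medial was also set against ventral alone. Between them 0 of 73 members passed in limma, where 11.2% of all tested did. An unadjusted p under 0.05 was found for 4 members (5.48%, against 24.4% of all tested). As medial minus ventral, these were Cox17 at 0.68, Ndufaf4 at -0.71 (SE 0.24, adjusted p = 0.103), Cycs at -0.81 (SE 0.29, adjusted p = 0.113) and Sdha at -0.48 (SE 0.18, adjusted p = 0.141). Cycs rested on medial replicate 2, its lowest array: the difference was -0.456 within replicate 1 and -1.173 within replicate 2. The Cycs difference was -0.384 without medial replicate 2 and -1.245 without medial replicate 1, each with 1 medial array left. The median member was -0.06, against 0.038 over all tested, and 0.021 without medial replicate 2 or 0.023 without ventral replicate 1. Medial against the other 4 pieces had a median of 0.031, which turned to -0.081 without medial replicate 1 and was 0.124 without replicate 2. With all arrays, 0 members had an unadjusted p under 0.05 in limma, where 13.9% of all tested did. Ndufv2, the subunit beside Ndufv1, and Sdhaf1 were the 2 members with both medial arrays above all others (2.74%, against 4.96% of all tested), and 0 were below (against 5.47%). The second Ndufv2 probe set differed by 0.031 only (SE 0.17), against 0.44 (SE 0.25) in the first.

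Dorsal, rostral and occipital pieces were close to the average. Dorsal had a member median of -0.0 with 0 of 73 passing in limma, where 0.274% of all tested did. An unadjusted p under 0.05 was reached by 0 members and by 6.62% of all tested. The smallest dorsal p was that of the second Cyc1 probe set at -0.54 (SE 0.30, adjusted p = 0.92), followed by Sdha at -0.20, Atp5d (161494_f_at) at -0.16, Ndufb3 at 0.17 and Cox7a2l at 0.165, all 4 with an adjusted p = 0.999. Ndufb3, an accessory subunit of complex I, was at 14248.8 and 13336 in dorsal, 12610.1 and 10332.6 in occipital, and 11078.9 to 13835 in the other pieces, so dorsal overlapped with them. No member had both dorsal arrays above or below the other pieces (2.81% and 2.18% of all tested did), nor both occipital arrays (0.754% and 1.1%), nor both rostral arrays above (0.497%). Rostral had a median of -0.072 and occipital of -0.062, against 0.0 and 0.01 over all tested, and 18 and 21 of the 73 members were above 0. In both comparisons 0.0% of all tested probe sets passed in limma. At an unadjusted p under 0.05 were 2 members in rostral (Ndufa8 and Cox18, 2.74% against 1.78% of all tested). In occipital it was 1 (Cyc1, 1.37% against 2.16%). The rostral median turned sign between replicates, at -0.15 in replicate 1 and 0.045 in replicate 2, while the occipital median was -0.052 and -0.055. Across the numbers the occipital value rested more on replicate 2: it was -0.112 without occipital replicate 1 and -0.007 without replicate 2. After Cyc1, the smallest occipital p-values were those of Atp5d (161494_f_at, 0.20), Ndufv3 (-0.35, SE 0.29), Ndufs1 (-0.14) and Ndufb3 (-0.17), all with a limma adjusted p = 1.0. Ndufv3, a small subunit of the NADH-oxidising arm, was at 3831.4 and 4762.4 in occipital and 3855 to 7338.7 in the other pieces, which overlapped.

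Because the windows upstream of these genes are known for a shared element, the 250 bases before the start of each RefSeq promoter entry (build GRCm38.p6) were searched for the members that matched. Of the 80 genes, 64 had an entry, with 70 promoters. The 8-letter core of the site of NRF1, a transcription factor known for respiratory genes, is CGCATGCG and reads the same on both strands. It was present in 8 of the 70 promoters (11.4%) against 1.55% of all 32851. The letters CCGGAAG, an ETS family element also read by GABP, were present on either strand in 16 of 70 (22.9%) against 6.91%. Both background shares take every promoter entry, whether or not the gene is expressed here, and base composition was not matched. A match describes letters in a window and is not a measured site. Shown are windows around the NRF1 core, in capitals, for the ventral-high members Cycs and Ndufaf4, the widest complex I member Ndufa8, and the ATP synthase genes Atp5g2 and Atp5l, each with 1 probe set that differed between the replicate numbers. Each is on the gene's strand, with up to 24 bases on either side within the searched stretch, so that of Ndufa8 ends at the start:
Cycs, chr6:50566599-50566654, minus strand: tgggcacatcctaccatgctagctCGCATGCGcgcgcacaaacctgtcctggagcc
Ndufaf4, chr4:24897947-24898002, plus strand: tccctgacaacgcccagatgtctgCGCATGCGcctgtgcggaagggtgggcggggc
Ndufa8, chr2:36049339-36049371, minus strand: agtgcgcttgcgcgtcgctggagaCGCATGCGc
Atp5g2, chr15:102671057-102671112, minus strand: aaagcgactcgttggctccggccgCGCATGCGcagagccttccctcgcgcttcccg
Atp5l, chr9:44920952-44920992, minus strand: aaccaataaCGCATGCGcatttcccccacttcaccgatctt

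The core starts 61 bases before the annotated start of Cycs, 112 before that of Ndufaf4, 9 before that of Ndufa8, 41 before that of Atp5g2 and 241 before that of Atp5l. These 5 members were picked for different traits, so whether genes with the core share a pattern cannot be read from them. Cycs and Ndufaf4 were highest in ventral, and Ndufa8 was low in rostral. Atp5g2 differed between the numbers, and so did 1 of the 2 tested Atp5l probe sets. The other 3 genes with the core were Atp5j, Atp5k and Cox6a1.

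The difference between the replicate numbers was where members passed the test. In a fit of 6 group means plus the number, 11 of 73 members differed between replicate 2 and replicate 1 (15.1%, against 17.2% of all tested): 10 were lower in replicate 2 (7.44% of all tested were lower) and 1 was higher (9.77%). The share that passed was near the background, but the direction was uneven. The p-values measure how alike the difference was over the 6 groups, not a spread between dissections. The labels do not say that arrays of one number share a dissection. The median member was lower in replicate 2 by 0.20 on the log2 scale, against 0.003 over all tested, and 62 of 73 were below 0. All 6 arrays numbered 2 were below all 6 numbered 1 for 10 members (13.7%, against 2.86% of all tested), and above for 1 (1.37%, against 3.33%). Replicate 2 was the lower in every group for 14 members (19.2%, against 12.4%) and the higher in every group for 3 (4.11%, against 12.6%). The actin 5' to 3' ratio also differed between the numbers, as given above, while that of Gapdh had nearly the same range in both. The part of RNA length in this was not tested.

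**Figure D4:**
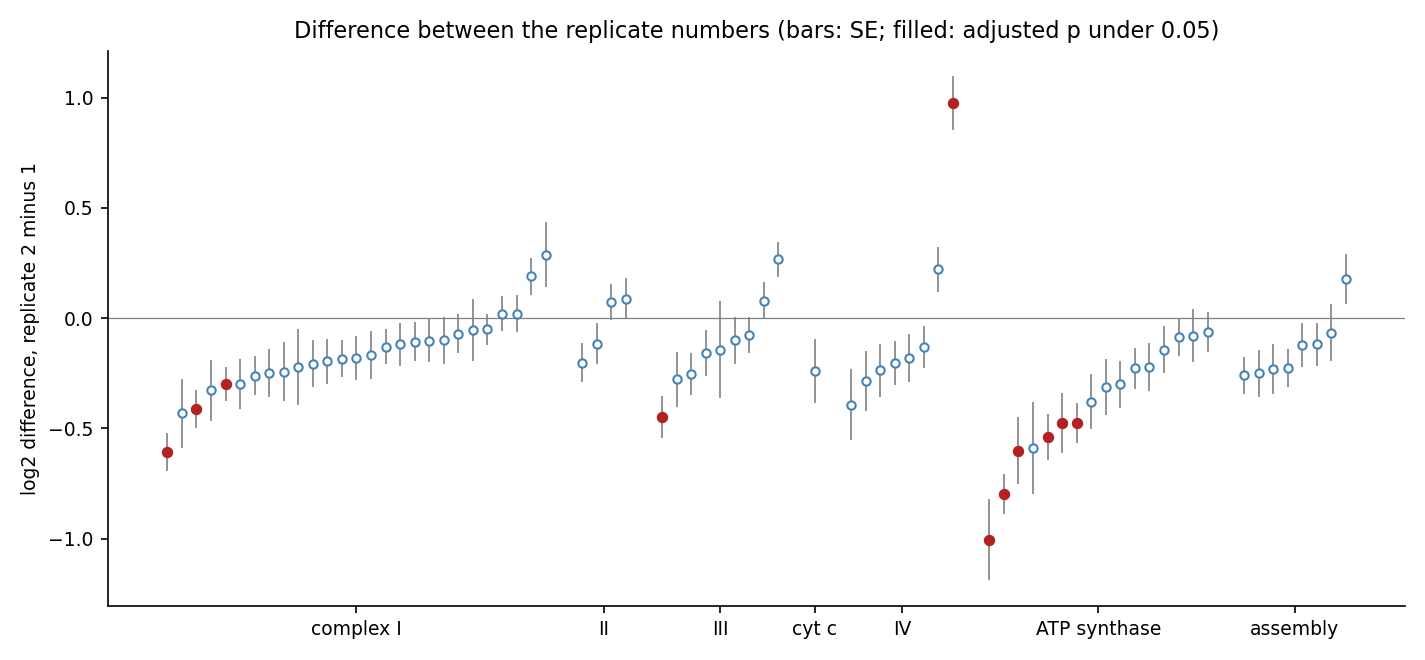
Log2 difference of replicate 2 minus replicate 1 for each of the 73 tested members, ordered by complex and by value, from the fit of 6 group means plus the replicate number. Bars are the SE and filled circles have an adjusted p under 0.05: 6 of 16 ATP synthase probe sets, 3 of 27 for complex I, 1 of 9 for complex III and 1 of 8 for complex IV.

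Of the 10 lower calls, 6 were of ATP synthase. All 16 of its probe sets were below 0, with a median of -0.35. The delta subunit Atp5d (161145_f_at) ranged from 4768 to 6790 in replicate 1 and from 3074 to 3571 in replicate 2, lower by 0.80 (SE 0.09, limma adjusted p = 0.00541). The numbers did not overlap, and the second array was lower in 6 of 6 groups. A second Atp5d probe set (162343_f_at) fell by 1.005 (SE 0.18, adjusted p = 0.0167), from 7477 to 11785 down to 3668 to 7269. The third, 161494_f_at, differed by -0.063 (SE 0.091, adjusted p = 0.649), so the probe sets of this gene disagreed.

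The other ATP synthase calls were the gamma subunit Atp5c1 (92799_g_at, -0.54, SE 0.11, adjusted p = 0.0185), the c-ring subunit Atp5g2 (-0.48, SE 0.091, adjusted p = 0.0181), Atp5pb of the peripheral stalk (-0.60, SE 0.15, adjusted p = 0.0369) and Atp5l (99678_f_at, -0.48, SE 0.14, adjusted p = 0.0476), all in limma. The second Atp5c1 probe set, 92798_at, was at -0.31 without passing (SE 0.12, adjusted p = 0.116). The brighter Atp5l probe set, 93014_at, differed by -0.080 (SE 0.12, adjusted p = 0.661). The alpha subunit Atp5a1 was at -0.086 (SE 0.084, adjusted p = 0.483). Values within the enzyme thus ranged from a small difference to a 2.01-fold one. The called probe sets of Atp5d, Atp5g2 and Atp5l have the suffix f_at, as does that of Ndufb5 below. Like that of Cox4i1, they may also match related sequences.

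Outside ATP synthase, Ndufa6, an accessory subunit of complex I, ranged from 5240.4 to 6775 in replicate 1 and from 3570.2 to 5090.2 in replicate 2. It was lower by 0.61 (SE 0.086, limma adjusted p = 0.0107), with no overlap and in 6 of 6 groups. Ndufab1, the mitochondrial acyl carrier protein, was lower by 0.41 (SE 0.087, adjusted p = 0.0217), Ndufb5 by 0.30 (SE 0.077, adjusted p = 0.0374), and the complex III hinge protein Uqcrh by 0.45 (SE 0.095, adjusted p = 0.0217). Cox8b was the 1 member that was higher in replicate 2, at 1040.2 to 1962 against -177.8 to 737. On 5 of the 6 arrays numbered 1 it was under the floor of 693.5, so its fitted difference of 0.98 (SE 0.12, adjusted p = 0.00786) depends on the floor. The first Cyc1 probe set was higher in replicate 2 in 6 of 6 groups by 0.27 (SE 0.081, adjusted p = 0.0564), without passing.

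The replicate difference was uneven over the groups. The median member was lower in replicate 2 by 0.24 in medial, by 0.11 in dorsal, by 0.23 in ventral, by 0.14 in occipital and by 0.48 in the whole hemisphere, and higher by 0.043 in rostral. For ATP synthase the same medians were -0.38, -0.24, -0.36, -0.34 and -0.78, with 0.052 in rostral. Rostral was the 1 group with a median above 0, and the hemisphere had the widest gap of the 6. Without either medial array, which removes that pair from the comparison, 3 members passed (Atp5d, Cox8b and Ndufa6; 4.11%, against 4.12% of all tested). Without either dorsal array 5 did (6.85%, against 4.48%), and without either ventral array 4 (5.48%, against 5.47%), so calls over all probe sets fell as well.

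**Figure D5:**
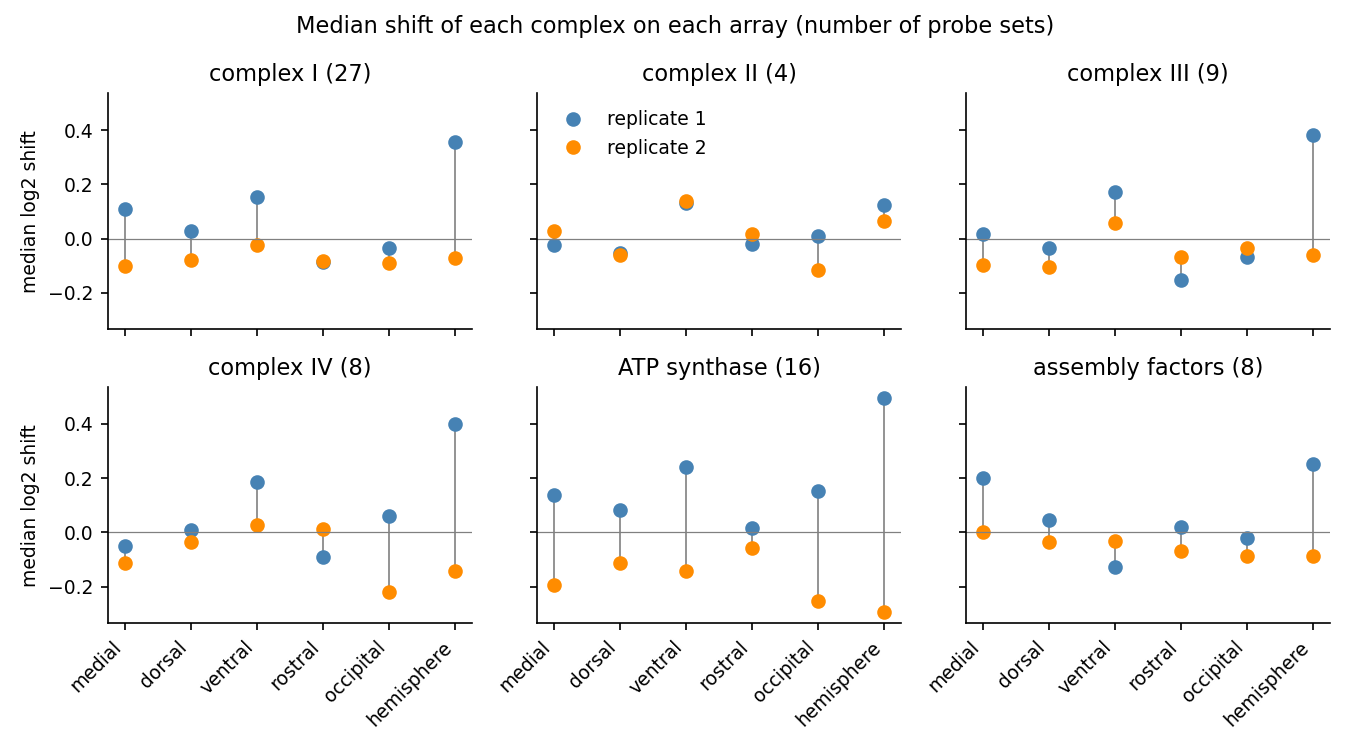
Median log2 shift of each complex on each array, relative to each probe set's mean over the 12 arrays; blue is replicate 1, orange replicate 2, and a grey line joins the arrays of one group. For ATP synthase the widest gap is in the hemisphere (0.50 and -0.29) and the narrowest in rostral (0.017 and -0.058), where the median of the members' own differences was 0.052, on the other side of 0.

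The whole hemisphere was compared with the mean of the 5 pieces. The median member was higher in the hemisphere by 0.16, against -0.005 over all tested, and 57 of 73 were above 0. This rested on replicate 1: the median was 0.31 within replicate 1 and -0.013 within replicate 2. Without hemisphere replicate 1 the median was -0.084, and without replicate 2 it was 0.40. No member passed in limma, as for all tested probe sets (0.0%), and 8 members had an unadjusted p under 0.05 (11.0%, against 4.75% of all tested). In hemisphere replicate 1 the blood marker list summed to 171088, against 104390 to 124426 on the 10 piece arrays and 121640 in hemisphere replicate 2, and 4 of its 7 genes were under the filter. That array also had the lowest actin 5' to 3' ratio, 0.604, but not the lowest Gapdh ratio, at 1.012 against 0.979 in hemisphere replicate 2. The part of blood and of RNA length in the members' values was not tested.

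The smallest p among members was that of the second Cyc1 probe set, at 234 and 1121 in the hemisphere against 1407 to 5088 in the pieces. Both hemisphere arrays were below all others, the first of them under the floor, and the difference was -1.82 (SE 0.29, unadjusted p = 0.000169, limma adjusted p = 0.409). Its size depends on the floor: with the floor at 0.5 times it was -2.321 (adjusted p = 0.798) and at 2 times -1.168 (adjusted p = 0.887). The first Cyc1 probe set was the reverse, at 38694 and 39946 against 25168 to 36862, with both hemisphere arrays above all others. Its difference was 0.34 (SE 0.17, adjusted p = 0.962). Cox4i1 was lower by 0.82 (SE 0.28, adjusted p = 0.962). Atp5md was at 43478 and 30397 against 24620.3 to 34787, and was 0.43 higher (SE 0.17, adjusted p = 0.962). Ndufb8 and Atp5d (161494_f_at) were at 0.335 and 0.34, with the same adjusted p. Sdhb was above all pieces on both arrays and Sdha below, so that 2 members were above (2.74%, against 1.23% of all tested) and 2 below (2.74%, against 1.25%).

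Gene groups around the pathway, listed with earlier results of these data known, were read in the same fits. Of all tested probe sets 4.25% were called higher in ventral and 5.54% lower. In ventral, 17 tested tricarboxylic acid cycle probe sets had a median of 0.18 with 1 higher and 1 lower call, 15 glycolytic ones 0.03 with 4 higher and 1 lower, and 18 of the vacuolar proton pump, a relative of ATP synthase, 0.36 with 2 higher and 1 lower. Mitochondrial ribosome subunits (59 tested) had a median of -0.071 and carriers and import proteins (21 tested) of 0.049, both with 0 calls by limma and 1 and 2 probe sets at an unadjusted p under 0.05. The 6 regulators of mitochondrial biogenesis that were tested and the 9 assembly factors whose names fall outside the rule had medians of -0.11 and 0.15 with 0 calls, and 1 and 0 at an unadjusted p under 0.05. Mitochondrial antioxidant genes (8 tested) had a median of 0.19 with 1 higher call.

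Between the replicate numbers, 9.77% of all tested were called higher in replicate 2 and 7.44% lower. The mitochondrial ribosome had a median of -0.24 and 2 higher and 11 lower calls of 59. The proteasome had 2 higher and 5 lower calls of 37 and a median of -0.14, carriers and import 1 higher and 3 lower of 21 with -0.09, and antioxidant genes 2 lower of 8 with -0.11. The vacuolar proton pump had 3 higher and 0 lower calls of 18 and a median of -0.041. An unadjusted p under 0.05 in limma was reached by 9 of the 18, and by 36.3% of all tested. Among other lists, 27 of 59 reached it for the mitochondrial ribosome, 18 of 37 for the proteasome and 11 of 21 for carriers and import. Lower shares were 2 of 17 for the tricarboxylic acid cycle, 5 of 15 for glycolysis and 4 of 28 for the cytosolic ribosome. The regulators of biogenesis had 1 higher call of 6 and a median of -0.035, and the assembly factors outside the rule 1 higher and 1 lower of 9 with -0.199. The tricarboxylic acid cycle, whose enzymes share the mitochondrion, had 1 higher call and a median of 0.035, and glycolysis 1 higher call and 0.13. The cytosolic ribosome had 1 higher call of 28 and a median of -0.092, and in the hemisphere its median was 0.27. The 8 tested probe sets that pair a member symbol with other symbols had a median of -0.11 between the numbers, with 1 lower call, and 0.17 in ventral, with none.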

How the data were processed

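Poly(A)+ RNA was converted to biotin-labelled cRNA and hybridised, per the labels' protocols, although the molecule field names total RNA. The deposited intensity is the average difference per probe set, linear and at times negative. As seen in the values, the authors had scaled each array to the same mean: after trimming 2%, all array means were 2500.0, within 0.0002%. The software is not given in the sources used here. A floor of 693.5 (root mean square over the negative values) replaced lower values before log2. Of 12488 probe sets, 66 controls were left out and 5832 (46.7%) passed the filter. Genes were named from the platform annotation: 5292 tested probe sets have 1 symbol, 212 several and 328 none. RefSeq matched 10839 of 10855 single-symbol probe sets and changed 0 symbols.

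One model with 6 group means was fitted in limma 3.58.1 (R 4.3.3; residual df 6, prior df 2.86), with Benjamini-Hochberg adjustment over all tested probe sets and a threshold of 0.05; the replicate number was tested as a term added to it. The fits were tested on simulated data. The rule for named members took those called in a comparison or, where fewer than 5 were, the 5 with the smallest p, the brightest and the widest-ranging member of each complex, isoform pairs and genes with several probe sets; members outside this rule were chosen after their values were seen. The members and lists were chosen with earlier results of these data known. The alternatives were the floor, the filter, quantile normalization, an arcsinh scale, the variance model, 1 probe set a gene, the replicate number as a block and each array left out. With 2 arrays a group, the number of arrays limits the precision.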

Additional observations from a re-analysis of the deposited data

Results flagged for a closer look

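The members' median log2 difference changed sign between the replicate numbers in 4 comparisons of pieces. Rostral minus occipital was -0.104 in replicate 1 and 0.056 in replicate 2. Hemisphere minus the mean of the 5 pieces was 0.306 and -0.013, medial minus the other 4 pieces 0.086 and -0.033, and rostral minus the other 4 pieces -0.154 and 0.045. The difference between the numbers was not tested in these 4 cases.

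The median of replicate 2 minus replicate 1 was -0.243 in medial, -0.105 in dorsal, -0.233 in ventral, -0.14 in occipital and -0.477 in the hemisphere, but 0.043 in rostral. Whether rostral differs from the other groups was not tested.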

How the results depend on the processing

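With the replicate number as a block, 2 members passed in ventral against the other pieces and 2 in medial against ventral, in place of 0: Cox17 (adjusted p = 0.0163 and 0.0149) and Ndufaf4 (0.0418 and 0.0395). That is 2.74% of the members, against 16.1% and 18.2% of all tested. The block changed no other count of members, while calls over all tested probe sets went from 571 to 938 in ventral, 656 to 1063 in medial against ventral, 190 to 442 for any piece, 74 to 256 in medial and 16 to 45 in dorsal. The labels do not say that equal numbers share a dissection. The number differences of the 15 pairs of groups correlated over all tested probe sets at -0.06 (rostral and occipital) to 0.562, median 0.411, with 14 above 0.1. Of the 12 arrays, 7 were closest to an array of their own number. Without the filter 3 of 109 members (2.75%) passed between the replicate numbers, in place of 11, as calls over all probe sets went from 1004 to 174 of 12422 (1.4%). Leaving out each array in turn gave 3 to 12 members there. Without a medial array it was 4.11% of members against 4.12% of all tested, without a rostral array 16.4% against 11.2%, and without an occipital array 15.1% against 19.2%. The hemisphere median ran from -0.084 to 0.401. The medians ran from 0.038 to 0.196 in ventral, -0.081 to 0.124 in medial, -0.041 to 0.049 in dorsal, -0.086 to -0.04 in rostral, -0.112 to -0.007 in occipital and -0.173 to 0.023 in medial against ventral, so those of medial, dorsal and medial against ventral turned sign. The ventral median was 0.062 after quantile normalization and 0.015 over all 109 members without the filter. The Ndufa10 difference in rostral was -1.058 without rostral replicate 2 and 0.002 without rostral replicate 1. Of 982 values of named members under these settings, 907 kept their direction and side of the threshold. A further 69 no longer passed, 5 passed only there and 1 turned direction. The 982 stand for 46 results, of which only the 11 calls between the replicate numbers passed before these changes. All 69 losses therefore fall on those 11, and the 907 include values that passed neither before nor after. Dropping the 4 rostral and occipital arrays, a choice made after seeing the data, turned the medial median from 0.031 to -0.032 but no named member, and 3 of their values no longer passed. The causes were not tested. The floor limits what can be seen for Cox8b (under it on 5 arrays numbered 1), the second Cyc1 probe set (on 1 array numbered 1) and Atp5k (on 1 array numbered 2). Sdha and Cox8c were dim, at 1035.0 and 943.2 on their lowest arrays, but above the floor of 693.5.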
